A study of Danio rerio with 15 samples.

Results

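Ventricles of zebrafish 9 days after the end of a 5-week treatment with phenylhydrazine (PHZ) were compared with ventricles at the end of that treatment, on 6 of the 15 arrays of the series. Arrays were chosen by their titles: 3 arrays named for 9 days after treatment and 3 named for the 5-week treatment, with all 19260 measured genes described. PHZ was given in baths of 30 min at intervals of 3 days, with 1.25 µg/mL of the compound during the first week, later raised to 2.5 µg/mL. Fish of the 9-day group had the same treatment and then 9 days without PHZ. Arrays at 2 and 5 days after treatment and of control fish, which had the same baths without PHZ, serve as further points (3 arrays each). Each array held RNA of 3 pooled ventricles, with 250 ng of RNA labelled per array. The labels give no strain, age or sex, and no sampling day for control fish, so recovery time and time since the start of the study cannot be told apart. The labels call the pools biological replicates without naming separate tanks or clutches, so p-values measure the spread between pools.

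PHZ destroys red blood cells, and the anaemia makes the heart pump more blood while receiving less oxygen. In fish and mammals, low oxygen stabilises hypoxia-inducible factors, which switch on genes of glucose uptake, glycolysis and vessel growth, while stretched heart muscle releases natriuretic peptides. The zebrafish heart can also return to cell division in its muscle cells, which the mammalian heart largely loses after birth.

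Values are log2 signals as the authors deposited them, so a difference of 1 is a doubling of signal. Differences are log2 values at 9 days minus those at the end of treatment, ± the standard error of limma, a linear model with a variance moderated across genes. The words rise and fall are kept for genes with a Benjamini-Hochberg adjusted p under 0.05 in that fit, taken over all genes. Array medians over all transcript clusters lay between 4.022 and 4.095. On the first principal component, which held 32.2% of the variance, the 9-day arrays scored -13.1, -14.9 and -12.2, against 33.7, 35.4 and 33.2 at the end of treatment and -29.4, -24.7 and -26.9 in control fish. On that component the 9-day arrays lay between the other 2 groups and overlapped neither. On the second, with 11.6% of the variance, they lay beyond both, at -14.3, -18.8 and -28, against -3.4, -4.3 and -10.9 at the end of treatment and 4.6, 9.3 and 2.9 in control fish. Heart muscle markers such as myl7 and actc1a, a cardiac myosin light chain and a cardiac actin, averaged 13.40 and 13.89 at 9 days. The skeletal muscle markers myhz1.1, myhz2, mylpfa and pvalb2 averaged 3.12 to 3.45 there, whereas the remaining marker of that set, the muscle creatine kinase gene ckma, which heart muscle also expresses, averaged 13.16. The liver markers apoa2 and fgb averaged 2.25 and 3.78, and no marker of either set was called. The atrial markers myh6 and nppa averaged 10.64 and 11.42 at 9 days, against 10.57 and 12.39 at the end of treatment. In control fish they averaged 11.35 and 10.98. Of these, nppa fell and myh6 was not called, and the part of atrial tissue in the differences below was not tested. In whole ventricles, fewer cells of a type and less RNA per cell cannot be told apart.

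In all, 3662 of 19260 genes (19%) changed between 9 days and the end of treatment. Of these, 1421 (7.38%) were higher and 2241 (11.6%) lower at 9 days. Arrays at 9 days and at the end of treatment did not overlap in 6531 of 19260 genes (33.9%), called or not. Lack of overlap, given below for single genes, was thus more common than a call. The split of directions depended on the scaling of the arrays. With every array centred on its own median, 2319 genes were higher and 1674 lower, and with cyclic loess 1633 were higher and 2092 lower. Changes of at least 1.5-fold were called for 512 higher (2.66%) and 1122 lower genes (5.83%), and of at least 2-fold for 123 higher (0.639%) and 383 lower genes (1.99%). A change of at least 4-fold was called for 5 higher (0.026%) and 41 lower genes (0.213%). The 5 were sctr, sult2st1, tnni4b.3, apof and the unnamed gene zgc:122979 (2.69 ± 0.32), the last of which was picked out after its values were seen. The plot of all genes against their mean signal shows this asymmetry among the large differences.

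**Figure D1:**
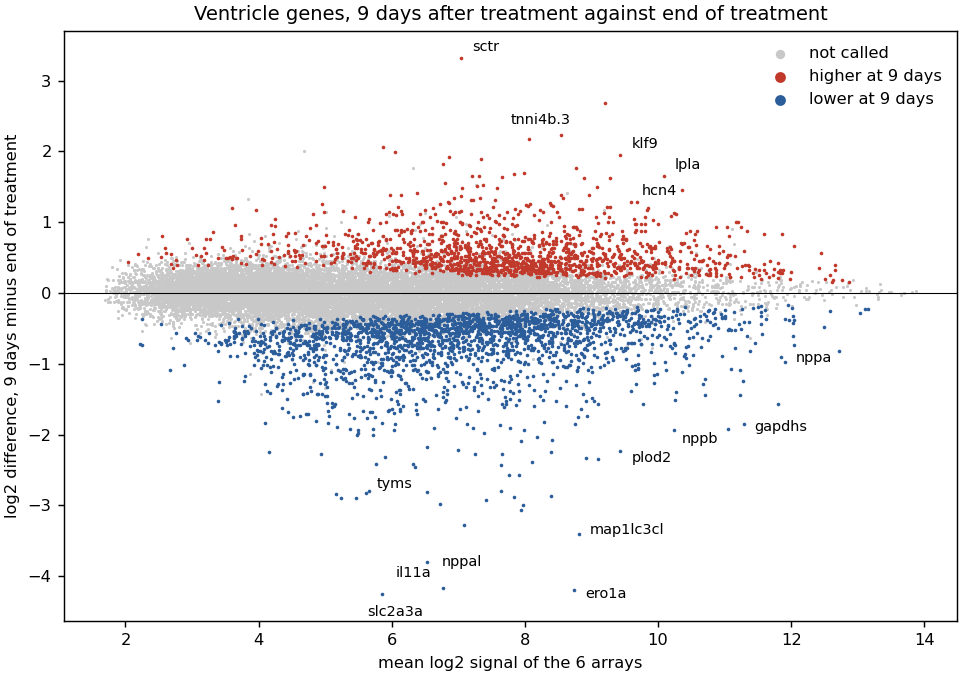
Each point is 1 of 19260 genes, with the mean log2 signal of the 6 arrays on the x axis and the log2 difference, 9 days minus end of treatment, on the y axis. Coloured points were called by limma: 1421 higher at 9 days and 2241 lower, with 5 genes beyond a 4-fold rise and 41 beyond a 4-fold fall.

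The largest rise was that of sctr, the receptor of the gut hormone secretin. Its log2 signals were 8.30, 9.02 and 8.77 at 9 days, against 5.07, 5.60 and 5.45 at the end of treatment and 8.72, 9.30 and 9.43 in control fish. The 9-day and end-of-treatment arrays did not overlap, whereas the 9-day range reached into that of control fish. The rise was 3.32 ± 0.26 (9.98-fold, adjusted p = 3.73e-07), and most of it had been reached by 2 days, when the mean was 8.23.

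Other genes with large rises had varied roles. The sulfotransferase gene sult2st1 rose by 2.23 ± 0.16, the troponin I gene tnni4b.3 by 2.18 ± 0.30 and apof, an apolipoprotein gene, by 2.07 ± 0.18. The lipoprotein lipase gene lpla, whose product frees fatty acids from circulating fat, had 10.74, 11.00 and 10.99 at 9 days, against 9.03, 9.33 and 9.42 at the end of treatment. That rise of 1.65 ± 0.14 (3.14-fold) had no overlap between the groups. The endothelial diaphragm gene plvapa rose by 1.83 ± 0.27, dok7a, an adaptor of the nerve-muscle synapse, by 1.64 ± 0.17 and the kinase gene wnk4b by 1.65 ± 0.20. The stress gene gadd45ga rose by 1.63 ± 0.29, the potassium channel subunit gene kcng1 by 1.92 ± 0.41, cthl by 1.68 ± 0.37 and the hypoxia-inducible factor gene hif1al2 by 1.69 ± 0.28.

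The largest fitted fall was that of slc2a3a, a glucose transporter gene. Its log2 signals were 3.95, 3.29 and 3.94 at 9 days, against 8.12, 8.12 and 7.68 at the end of treatment and 3.60, 3.13 and 3.36 in control fish. The groups were far apart on every pair of arrays, and the fall was -4.25 ± 0.24 (adjusted p = 2.4e-08). The 9-day signals of slc2a3a lay below the array medians, and signal over background is unknown, so no fold is given and its rank is that of the fitted values. The endoplasmic reticulum oxidase gene ero1a, which helps form disulphide bonds in secreted proteins, had 6.62, 6.47 and 6.85 at 9 days, against 10.74, 10.89 and 10.90 at the end of treatment (-4.20 ± 0.23). The cytokine gene il11a had 5.02, 4.44 and 4.57 at 9 days, against 8.46, 9.06 and 9.02 at the end of treatment (-4.17 ± 0.39). Its 9-day mean differed from control by 0.47 with adjusted p = 0.559.

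Among the other large falls, nppal, a relative of the natriuretic peptide genes, fell by 3.80 ± 0.53, and its end-of-treatment arrays were uneven at 6.41, 9.30 and 9.60. The autophagy gene relative map1lc3cl fell by 3.40 ± 0.34 and the vasodilator peptide gene adm2a by 3.00 ± 0.28. The prostaglandin synthase gene ptgs2b fell by 2.98 ± 0.30, the neuronal protease inhibitor gene serpini1 by 2.93 ± 0.17, the angiopoietin gene ANGPT2 by 2.90 ± 0.16 and the endothelial tip-cell gene esm1 by 2.88 ± 0.23. The secreted protein gene sid4 fell by 3.06 ± 0.22, ntmt2 fell by 2.84 ± 0.20 and the thymidylate synthase gene tyms fell by 2.81 ± 0.17. The mean signal of ntmt2 lay in the lowest 33% of genes. The argininosuccinate synthase gene ass1 fell by 2.87 ± 0.74 with uneven 9-day arrays, at 7.91, 4.56 and 8.41, and its call was lost with a robust variance. In the plot of the largest changes, most 9-day points lie beside those of control fish, with map1lc3cl, grna.1 and klf9 among the exceptions. For klf9 the call against control was lost in 4 of 6 cases with 1 array left out.

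**Figure D2:**
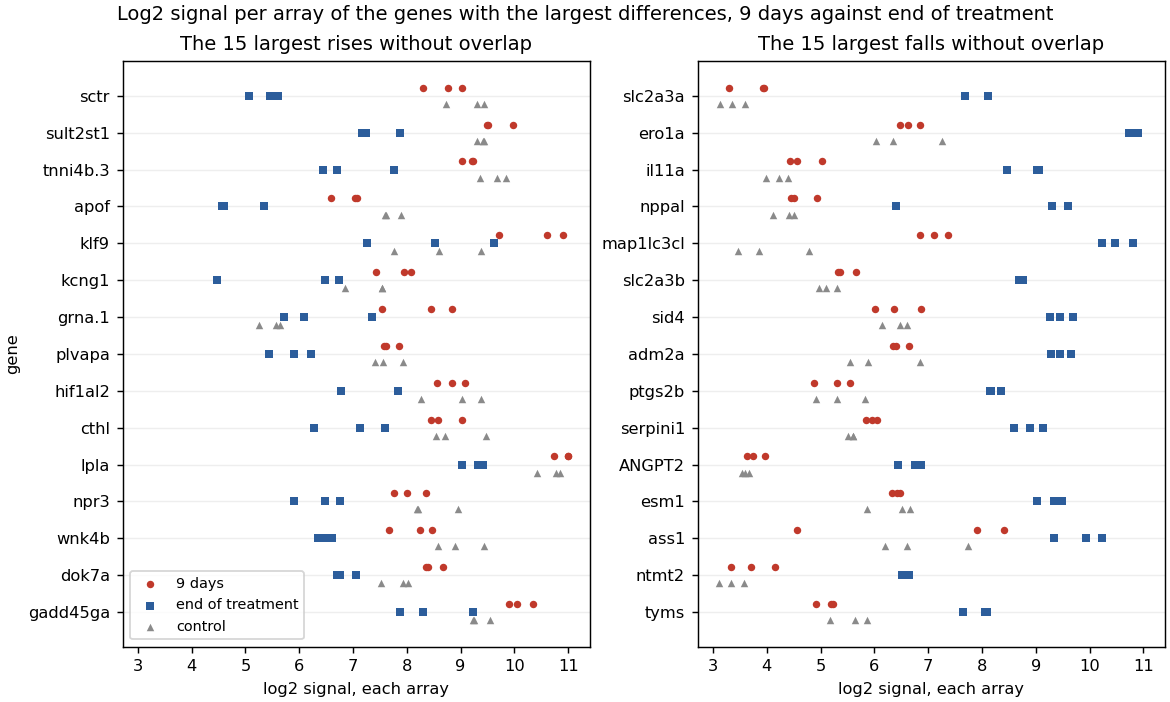
Log2 signal of each array for the 15 largest rises (left) and falls (right) among named genes called without overlap between 9 days and end of treatment, with 9 days as circles, end of treatment as squares and control as triangles. That choice leaves out dusp2, whose arrays overlap, and for slc2a3a the 9-day arrays at 3.29 to 3.95 lie close to control at 3.13 to 3.60.

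Genes of glucose uptake and glycolysis were mostly lower at 9 days. Of 36 measured genes 23 fell and 4 rose (75% called, against 19% over all genes). Their median difference was -0.54, against 0.00 over all genes. The second slc2a3 gene, slc2a3b, had 5.32, 5.36 and 5.66 at 9 days, against 8.69, 8.69 and 8.76 at the end of treatment (-3.27 ± 0.22). The glyceraldehyde phosphate dehydrogenase gene gapdhs had 10.32, 10.34 and 10.44 at 9 days, against 12.22, 12.28 and 12.12 at the end of treatment (-1.85 ± 0.10, 3.59-fold lower). In each of these genes the groups were separated by more than 1 log2 unit. The mutase gene pgam1a fell by 1.52 ± 0.11 and the glucose phosphate isomerase gene gpia by 0.90 ± 0.07. The paralog gapdh differed by 0.03 ± 0.06 and the aldolase gene aldoab by 0.05 ± 0.06, and neither passed the test.

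In the hypoxia response list 20 of 41 genes fell and 7 rose (65.9% called, against 19% over all genes, median -0.34). The oxygen-sensing hydroxylase gene egln3 had 6.95, 7.12 and 7.42 at 9 days, against 9.29, 9.20 and 9.08 at the end of treatment (-2.03 ± 0.20). Its groups did not overlap, and control arrays lay lower still, at 6.24, 6.69 and 6.59. The related gene egln1a fell by 1.3 ± 0.12, the stress gene ndrg1a by 1.75 ± 0.14 and the vessel growth factor genes vegfab and vegfaa by 1.40 ± 0.10 and 1.01 ± 0.11. The 7 that rose included hif1al2, a gene of the oxygen-regulated factor family itself. The hydroxylase gene egln2 and the Myc antagonist gene mxi1 were not called, at -0.08 ± 0.08 and 0.23 ± 0.08.

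Genes of cardiac load fell in 13 and rose in 5 of 41 (43.9% called, against 19% over all genes), with a median of 0.01. The natriuretic peptide gene nppb had 9.79, 10.29 and 10.21 at 9 days, against 11.72, 12.18 and 12.14 at the end of treatment (-1.92 ± 0.17, 3.78-fold lower). The sister gene nppa had 11.36, 11.49 and 11.40 at 9 days, against 12.56, 12.32 and 12.29 at the end of treatment (-0.97 ± 0.09, 1.96-fold lower). In both genes every 9-day array lay below every end-of-treatment array. The clearance receptor gene npr3, whose product removes these peptides, moved the other way, with 8.35, 7.76 and 8.0 at 9 days, against 6.76, 6.48 and 5.91 at the end of treatment (1.65 ± 0.24). The stretch-responsive gene ankrd1a fell by 1.97, and the growth factor gene mdka by 1.24 ± 0.15. The cardiac transcription factor gene gata4 was not called (0.06 ± 0.08). Median centring left 13 lower and 7 higher in this list and moved its median to 0.10.

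Among receptors for nerve transmitters and hormones, 12 of 58 genes rose and 3 fell (25.9% called, against 19% over all genes, median 0.17). Nothing is read of this list from its count. With median centring 19 rose and 2 fell. Beside sctr, the beta adrenergic receptor gene adrb1, through which adrenaline speeds the heart, had 8.27, 8.16 and 8.21 at 9 days, against 7.41, 7.52 and 7.42 at the end of treatment (0.76 ± 0.10). No arrays overlapped, and the difference was 0.51 when the 2 transcript clusters of adrb1 were averaged. The adenosine receptor gene adora1b rose by 0.67 ± 0.10, the adrenergic receptor gene adrb3a by 1.12 ± 0.18 and the endothelin receptor gene ednrab by 0.80 ± 0.13. The receptor accessory gene ramp2 (-0.25 ± 0.09) and the endothelin-converting enzyme gene ece1 (-0.26 ± 0.10) did not pass the test.

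Genes of cell division were lower at 9 days. Of 52 mitosis and cytokinesis genes 43 fell and 0 rose (median -0.90), and of 55 genes of DNA replication and nucleotide synthesis 40 fell and 0 rose (median -0.76). The shares called were 82.7% and 72.7%, against 19% over all genes. Median centring gave 43 and 33 falls, again with 0 rises, and leaving out any of the 6 arrays gave 40 to 43 and 34 to 40. The mitotic kinase gene cdk1 had 4.98, 4.61 and 4.66 at 9 days, against 6.55, 6.46 and 6.51 at the end of treatment (-1.76 ± 0.14, 3.38-fold lower). The replication clamp gene pcna had 7.47, 7.42 and 7.65 at 9 days, against 9.03, 9.21 and 8.83 at the end of treatment (-1.51 ± 0.11, 2.85-fold lower). In both genes the groups stood apart and the 9-day arrays spanned the control level, with control arrays at 4.44, 4.66 and 4.88 for cdk1 and at 7.28, 7.64 and 7.46 for pcna. The thymidine kinase gene tk1 fell by 2.57 ± 0.16, the chromatin assembly gene chaf1b by 2.00 ± 0.12 and the ribonucleotide reductase gene rrm1 by 1.57 ± 0.11. On the mitotic side, the spindle midzone gene prc1b fell by 2.31 ± 0.24, the division transcription factor gene foxm1 by 1.73 ± 0.17 and the phosphatase gene cdc25b by 1.1 ± 0.10. The checkpoint gene bub3 (-0.04 ± 0.09) and the kinesin gene kif4 (-0.17 ± 0.17) did not pass. The cell types in which these genes were expressed cannot be told apart in whole ventricles.

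**Figure D3:**
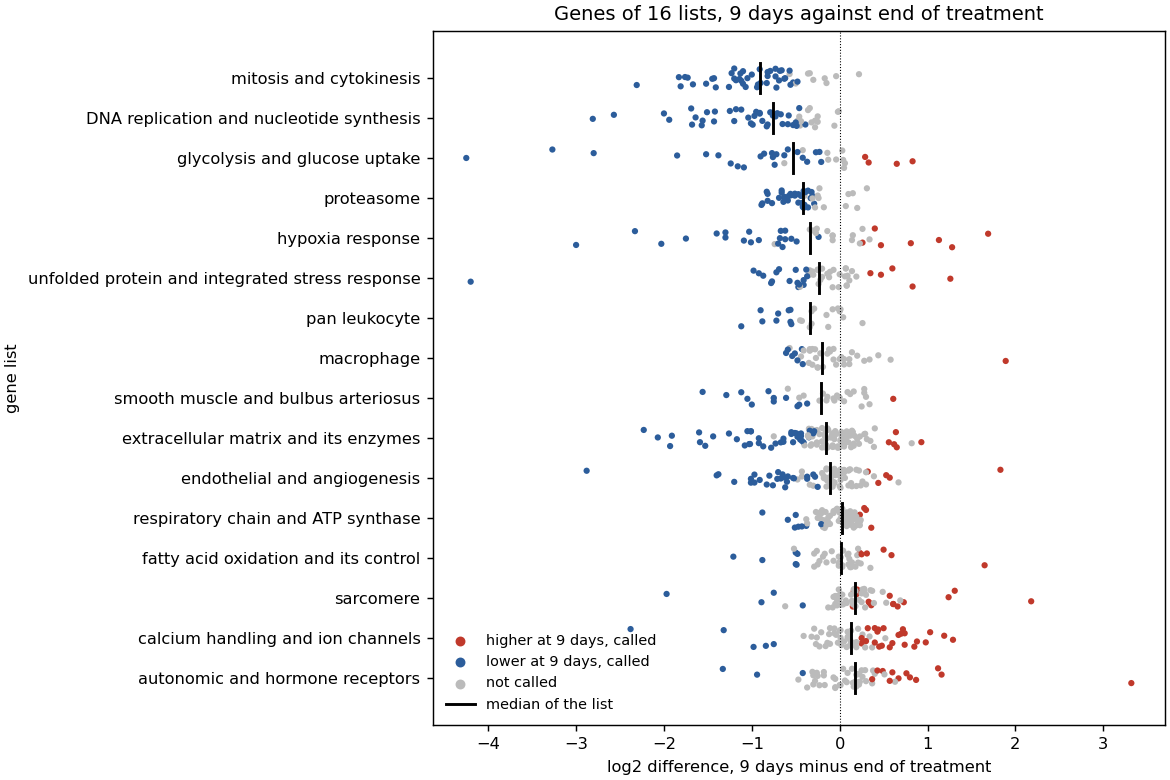
Each point is 1 gene of 1 of 16 lists (rows), with its log2 difference, 9 days minus end of treatment, on the x axis and black bars at the list medians. The mitosis list has its median at -0.90 with 43 of 52 genes called lower, and the calcium handling and ion channel list has 24 of 69 called higher.

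Proteasome genes, whose products degrade proteins, were also lower. Of 45 proteasome genes 33 fell and 0 rose (73.3% called, against 19% over all genes, median -0.42). With median centring 24 fell and 1 rose. The core subunit gene psma3 had 8.29, 8.24 and 8.16 at 9 days, against 9.09, 8.99 and 9.07 at the end of treatment (-0.82 ± 0.08). The subunit genes psmb2, psma4, psmd2 and psmd12 fell by 0.89 ± 0.10, 0.88 ± 0.10, 0.51 ± 0.06 and 0.77 ± 0.09, each without overlap between the groups. The activator gene psme4b (0.07 ± 0.07) was not called. In the unfolded protein and integrated stress response list 17 of 49 genes fell and 5 rose (44.9% called, against 19% over all genes, median -0.24). The endoplasmic reticulum chaperone gene hspa5 had 9.73, 9.49 and 9.43 at 9 days, against 10.44, 10.26 and 10.11 at the end of treatment (-0.72 ± 0.10), and the groups did not overlap. The calreticulin gene calr3b fell by 0.77 ± 0.09, the disulphide isomerase gene pdia4 by 0.69 ± 0.09 and the co-chaperone gene dnajb11 by 0.92 ± 0.13, while p4hb was at 0.00 ± 0.08.

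The 46 heat shock chaperone genes held 5 rises and 6 falls (23.9% called, against 19% over all genes). Nothing is read of this list from its count. Without end of treatment replicate 3, 7 of these genes were called. The median was 0.10 with median centring, where 8 rose and 3 fell. The co-chaperone gene bag3, which maintains muscle fibres, rose by 0.54 ± 0.07, and the regulator gene hsf1 by 0.45 ± 0.07. The collagen chaperone gene serpinh1a fell by 1.53 ± 0.21 and the mitochondrial chaperone gene hspd1 by 0.85 ± 0.16. In the autophagy and lysosome list 12 of 46 fell and 4 rose (34.8% called, against 19% over all genes, median -0.03). The 4 rises became 8 with median centring and 1 without 9 days after treatment replicate 2 or end of treatment replicate 2. Its members included the protease genes ctsk and atg4b at -0.96 ± 0.14 and -1.1 ± 0.16 and the autophagosome gene gabarapb at 0.40 ± 0.06.

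Among genes of ion handling more rose than fell. Of 69 calcium handling and ion channel genes 24 rose, 5 fell and 40 were not called (42% called, against 19% over all genes, median 0.13). The pacemaker channel gene hcn4 had 10.25, 10.40 and 10.07 at 9 days, against 9.09, 8.82 and 8.94 at the end of treatment and 11.40, 11.19 and 11.37 in control fish. None of the 3 groups overlapped, with a rise of 1.29 ± 0.12 (2.45-fold) over the end of treatment. The junctophilin gene jph2, whose product holds calcium stores next to the cell membrane, had 9.57, 9.73 and 9.65 at 9 days, against 8.79, 8.85 and 8.74 at the end of treatment (0.85 ± 0.08). The calcium-dependent kinase gene camk2d2 rose by 1.03 ± 0.11 and the sodium and calcium exchanger gene slc8a1a by 0.60 ± 0.07. The potassium channel subunit gene kcne4 went the other way, with 6.88, 7.05 and 6.79 at 9 days, against 9.28, 9.38 and 9.19 at the end of treatment (-2.38 ± 0.28). The phospholamban gene pln1 (0.05 ± 0.07) and the sodium pump gene atp1b1a (-0.06 ± 0.06) were not called.

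Of 64 sarcomere genes, 16 rose and 4 fell (31.2% called, against 19% over all genes, median 0.17). There were 21 rises and 4 falls under median centring. The Z-disc gene ldb3b had 12.73, 12.70 and 12.77 at 9 days, against 12.15, 12.14 and 12.19 at the end of treatment (0.57 ± 0.06). The myosin-binding gene mybphb rose by 1.31 ± 0.16 and the thin filament gene lmod2a by 0.73 ± 0.12, whereas the muscle LIM gene csrp3 fell by 0.42 ± 0.07. Of the 9 ventricular muscle markers 4 rose, 0 fell and 5 were not called, and their mean level was 11.84 to 11.87 at 9 days, against 11.52 to 11.74 at the end of treatment. The part of that shift in the sarcomere and ion channel counts was not tested. The myosin heavy chain genes myh6 (0.08 ± 0.28) and myh7 (0.25 ± 0.32) were not called. The 2 transcript clusters of myh7 disagreed, since their mean gave a difference of 0.60.

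Fuel and mitochondrial lists held calls in both directions. The shares called were 26.7% for fatty acid oxidation, 20.5% for lipid synthesis, 15.8% for the respiratory chain, 29% for the tricarboxylic acid cycle and 25.8% for the mitochondrial ribosome and biogenesis list, against 19% over all genes, and nothing is read of these lists from their counts. The fatty acid oxidation list held 6 rises and 6 falls among 45 genes, with 7 calls without 9 days after treatment replicate 1 and without end of treatment replicate 1 or replicate 3. Beside lpla, the kinase gene pdk4, which limits glucose oxidation, rose by 0.31 ± 0.08, and the dehydrogenase gene hadh fell by 0.50 ± 0.11. The fatty acid carrier gene fabp3 (0.10 ± 0.05) and the dehydrogenase gene acadvl (0.12 ± 0.08) did not pass. In lipid synthesis 5 of 44 rose and 4 fell, and 8 rose and 2 fell with median centring. The acetyl-CoA carboxylase genes acaca and acacb rose by 0.83 ± 0.10 and 0.66 ± 0.08, and msmo1, a sterol synthesis gene, fell by 0.50 ± 0.11.

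Among 76 genes of the respiratory chain 8 fell and 4 rose, and among 31 of the tricarboxylic acid cycle 5 fell and 4 rose. Both splits turned under median centring, with 13 and 9 rises against 7 and 4 falls, so no direction is given for them. The cytochrome gene cyc1 and the complex I gene ndufv1 fell by 0.47 ± 0.06 and 0.51 ± 0.07, while the malate dehydrogenase gene mdh1aa rose by 0.42 ± 0.06. The mitochondrial ribosome and biogenesis list had 17 of 89 genes lower and 6 higher, and 11 lower and 13 higher under median centring. Its largest single change was mfn1b, a gene for fusion of mitochondria, with 10.32, 10.36 and 10.37 at 9 days, against 9.17, 9.28 and 9.36 at the end of treatment (1.08 ± 0.07, adjusted p = 7.76e-08). The 9-day arrays of mfn1b differed from one another by at most 0.05.

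Both measured adult globin genes were called lower than at the end of treatment, with calls that depended on single arrays. The adult globin gene hbaa2 had 9.82, 9.47 and 9.56 at 9 days, against 10.51, 10.35 and 10.91 at the end of treatment and 7.58, 9.03 and 8.08 in control fish. Its arrays did not overlap between any 2 of these groups. The fall of hbaa2 was -0.97 ± 0.28 with adjusted p = 0.0219, and hbba2 fell by 0.62 ± 0.20 with adjusted p = 0.0392. Leaving out 1 array ended the call of hbaa2 in 3 of 6 cases and of hbba2 in 5. Globin copies are near-identical in sequence, so their probes may share signal. Of the 4 measured red cell markers 3 fell, both globin genes and slc4a1a, the anion exchanger gene of the red cell membrane (-0.98 ± 0.20, adjusted p = 0.00191). The mean level of the 4 was 9.80 to 9.87 at 9 days, against 10.21 to 10.68 at the end of treatment. In the erythroid maturation list 10 of 51 rose and 11 fell (41.2% called, against 19% over all genes, median 0.08). With median centring 16 rose and 10 fell. Among the rises was creg1, at 1.29 to 1.68 across 16 alternative settings of the fit. Haem synthesis genes were among the falls, with urod at -1.33 ± 0.13, cpox at -1.24 ± 0.13 and alas1 at -0.82 ± 0.10, whereas alas2, the red cell form of that enzyme, was at 0.41 ± 0.17 and was not called. A score of 58 blood genes was 0.19, 0.21 and 0.19 at 9 days, against 0.15, 0.14 and 0.28 at the end of treatment. The score hardly differed between these groups, so a fit that included it, with 3734 genes called, could change little. It also did not show the lower level of the red cell markers. Nothing is therefore read from that fit on blood content. The haem oxygenase gene hmox1a, which breaks down free haem, was not called (0.09 ± 0.18).

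Leukocyte genes fell in part. Of 23 genes shared by leukocytes 9 fell and 0 rose (39.1% called, against 19% over all genes, median -0.34). The integrin gene itgb2, found on all white cells, had 7.74, 7.56 and 7.49 at 9 days, against 8.45, 8.54 and 8.43 at the end of treatment and 6.94, 7.18 and 7.01 in control fish (-0.88 ± 0.11 between 9 days and the end of treatment). The 9-day arrays thus lay between the other groups without overlap. Of 40 macrophage genes 7 fell and 1 rose (20% called, against 19% over all genes). Nothing is read of this list from its count. That count fell to 2 to 3 calls in all with median centring and without 9 days after treatment replicate 2 or 3 or end of treatment replicate 2 or 3. The pore protein gene mpeg1.2 had 7.74, 8.24 and 7.97 at 9 days, against 8.51, 8.52 and 8.45 at the end of treatment (-0.51 ± 0.12), a call kept with each array left out. The calls of mpeg1.1 (-0.59 ± 0.19) and of the growth factor receptor gene csf1ra (-0.48 ± 0.14) were lost in 5 and 4 of those 6 cases. The granulin gene grna.1 was the 1 macrophage list member that rose (1.89 ± 0.46), with 7.54, 8.45 and 8.83 at 9 days, against 7.36, 5.72 and 6.09 at the end of treatment. Neutrophil markers mpx, lyz and mmp13a and the lymphocyte markers lck, cd79a, zap70 and rag1 were not called.

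In the inflammation list 14 of 63 genes fell and 3 rose (27% called, against 19% over all genes). Nothing is read of this list from its count. The cytokine signalling inhibitor gene socs3b had 7.90, 7.79 and 7.76 at 9 days, against 9.34, 9.61 and 10.06 at the end of treatment (-1.85 ± 0.20), without overlap. The growth factor gene tgfb1b fell by 0.96 ± 0.10 and the prostaglandin synthase gene ptgs2a by 1.37 ± 0.17. The related growth factor genes tgfb2 (-0.02 ± 0.08) and tgfb3 (-0.25 ± 0.14) were not called. The interferon response list of 50 genes held 4 falls and 1 rise (10% called, fewer than the 19% over all genes). The rise was that of the signalling gene stat2 (0.83 ± 0.16). With median centring 3 fell and 4 rose, and 3 were called without 9 days after treatment replicate 2 or without end of treatment replicate 3.

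Vessel genes fell in 27 and rose in 5 of 85 (37.6% called, against 19% over all genes, median -0.11). With median centring 23 fell and 12 rose. The peptide gene apln, made by sprouting vessel cells, had 8.90, 8.76 and 9.05 at 9 days, against 10.26, 10.46 and 10.14 at the end of treatment (-1.38 ± 0.12), and no arrays overlapped. The junction gene esama fell by 0.63 ± 0.06. The 5 defining endothelial markers kdrl, cdh5, pecam1a, tie1 and fli1 differed by -0.16 to 0.01 and none was called.

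Matrix genes fell in 39 and rose in 5 of 125 (35.2% called, against 19% over all genes, median -0.16). They fell in 32 and rose in 8 with median centring. The collagen-modifying gene plod2 had 8.49, 8.39 and 8.09 at 9 days, against 10.50, 10.57 and 10.59 at the end of treatment (-2.23 ± 0.13), although the mean of its 2 transcript clusters gave -1.28. Its relative plod1a fell by 1.93 ± 0.13, the fibronectin gene fn1b by 1.44 ± 0.18, the hyaluronan link protein gene hapln1a by 2.07 ± 0.24 and fbln2 by 0.92 ± 0.11. The collagen genes col1a1a and col1a2 fell by 0.78 and 0.55. They belong to the 5 fibroblast markers, of which lum also fell (-1.05 ± 0.16), pdgfra rose (0.46 ± 0.13) and dcn was not called (-0.40 ± 0.14). The 9-day mean of lum, 3.64, lay below the array medians. The mean level of the 5 was 7.12 to 7.39 at 9 days, against 7.68 to 7.80 at the end of treatment, and its part in the matrix counts was not tested. The crosslinking enzyme gene loxl1 (-0.15 ± 0.11) was not called. In the regeneration list, which shares il11a, vegfaa, hapln1a and fn1b with others, 27 of 106 fell and 6 rose. That was 31.1% called, against 19% over all genes. Rises numbered 1 to 2 without 9 days after treatment replicate 1 or end of treatment replicate 1 or 2.

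Smooth muscle genes fell in 12 and rose in 1 of 34 (38.2% called, against 19% over all genes, median -0.21). The actin gene acta2 had 8.48, 8.09 and 8.40 at 9 days, against 9.79, 10.04 and 9.81 at the end of treatment (-1.56 ± 0.23), and the myosin gene myh11a fell by 1.00 ± 0.15. Of the 12, acta2, tagln, myh11a and mylka belong to the 5 smooth muscle markers, whose mean level was 7.41 to 7.90 at 9 days, against 8.45 to 8.96 at the end of treatment and 8.03 to 9.12 in control fish. The remaining marker, the outflow tract elastin gene elnb, was at -0.75 with adjusted p = 0.394. The part of smooth muscle or outflow tract tissue in the matrix counts was not tested. The epicardial markers tcf21, tbx18 and wt1b differed by -0.03 to 0.17 and were not called, and aldh1a2 fell by 0.58. The epicardium and fibroblast list had 13 of 47 lower and 7 higher (42.6% called, against 19% over all genes, median -0.03). Its largest rise was that of the carboxypeptidase inhibitor gene lxn (1.08 ± 0.11).

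Stress kinase targets and clock genes moved in both directions. Of 56 immediate early genes 14 rose and 15 fell (51.8% called, against 19% over all genes). There were 19 calls without 9 days after treatment replicate 3 and 18 without end of treatment replicate 2. The immediate early gene ier5l fell by 1.58 ± 0.12, while mycb rose by 0.63 ± 0.09. The hormone-responsive transcription factor gene klf9 had 9.72, 10.61 and 10.91 at 9 days, against 8.52, 7.25 and 9.62 at the end of treatment and 7.77, 8.60 and 9.37 in control fish (1.95 ± 0.48 over the end of treatment). The phosphatase gene dusp2 had 5.75, 7.29 and 8.09 at 9 days, against 4.69, 4.70 and 5.79 at the end of treatment (1.99 ± 0.46), where the lowest 9-day array lay under the highest array of the other group. In the clock list 10 of 49 rose and 8 fell (36.7% called, against 19% over all genes), and 17 rose and 8 fell with median centring. The clock output gene tefb had 9.11, 9.01 and 9.02 at 9 days, against 7.96, 7.81 and 8.14 at the end of treatment (1.07 ± 0.10), and nfil3, which acts against such genes, fell by 2.09 ± 0.24. The clock genes nr1d1 and per1a rose by 0.65 and 1.06. The labels give no hour of sampling, and its part in these differences was not tested.

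Setting 9 days against 5 days shows what moved late in recovery. This comparison shares its 9-day arrays with the one above. In all, 1178 of 19260 genes (6.12%) changed, 552 (2.87%) higher and 626 (3.25%) lower at 9 days. The count was 664 without 9 days after treatment replicate 3, 615 without 5 days after treatment replicate 3, and 636 when these 6 arrays were fitted alone. Mitosis genes fell in 34 and rose in 0 of 52 (median -0.81), and DNA replication genes fell in 26 and rose in 0 of 55 (median -0.47). The shares called were 65.4% and 47.3%, against 6.12% over all genes. The thymidylate synthase gene tyms fell by 3.02 and tk1 by 2.41, with 5-day means of 8.14 and 9.03 against end-of-treatment means of 7.93 and 9.19. The mitotic genes prc1b, nusap1 and cdc20 fell by 2.56, 2.05 and 1.99. Proteasome genes fell in 13 of 45 and rose in 0 (28.9% called). There were 6 falls without 9 days after treatment replicate 3 or 5 days after treatment replicate 3. Falls numbered 22 for mitosis, 15 for DNA replication and 4 for proteasome genes in a fit that included the blood score. The score alone widens standard errors 1.27-fold in this comparison, and the part of blood content in the lost calls was not tested. The gene slc2a3a differed from 5 days by -0.47 with adjusted p = 0.322, sctr by 0.20 with adjusted p = 0.765 and hcn4 by 0.04 with adjusted p = 0.917. In the glycolysis and glucose uptake list, though, 6 of 36 genes fell and 0 rose (16.7% called, against 6.12% over all genes). Those lower included pgam1a, called in every alternative, and slc2a3b, not called with the blood score in the fit. In the hypoxia response list 6 of 41 rose and 3 fell (22% called).

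The rises from 5 days were led by klf11b (2.49), the pyruvate dehydrogenase kinase gene pdk2b (2.22), dusp2 (2.2), the lipase inhibitor gene angptl4 (2.05) and klhl38b (1.72). These were not steady courses. The mean of klf11b was 10.59 at the end of treatment, 9.57 at 2 days, 7.41 at 5 days and 9.89 at 9 days. That of pdk2b was 11.31, 9.04, 7.88 and 10.10 at the same points. The 9-day arrays of pdk2b, angptl4 and dusp2 were uneven, at 9.49, 10.29 and 10.51, at 8.02, 9.24 and 9.38, and at 5.75, 7.29 and 8.09, with replicate 1 lowest in each. The plot of list scores shows that mitosis genes stayed high through 5 days and were near control at 9 days, while the glycolysis score had already come down at 2 days.

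**Figure D4:**
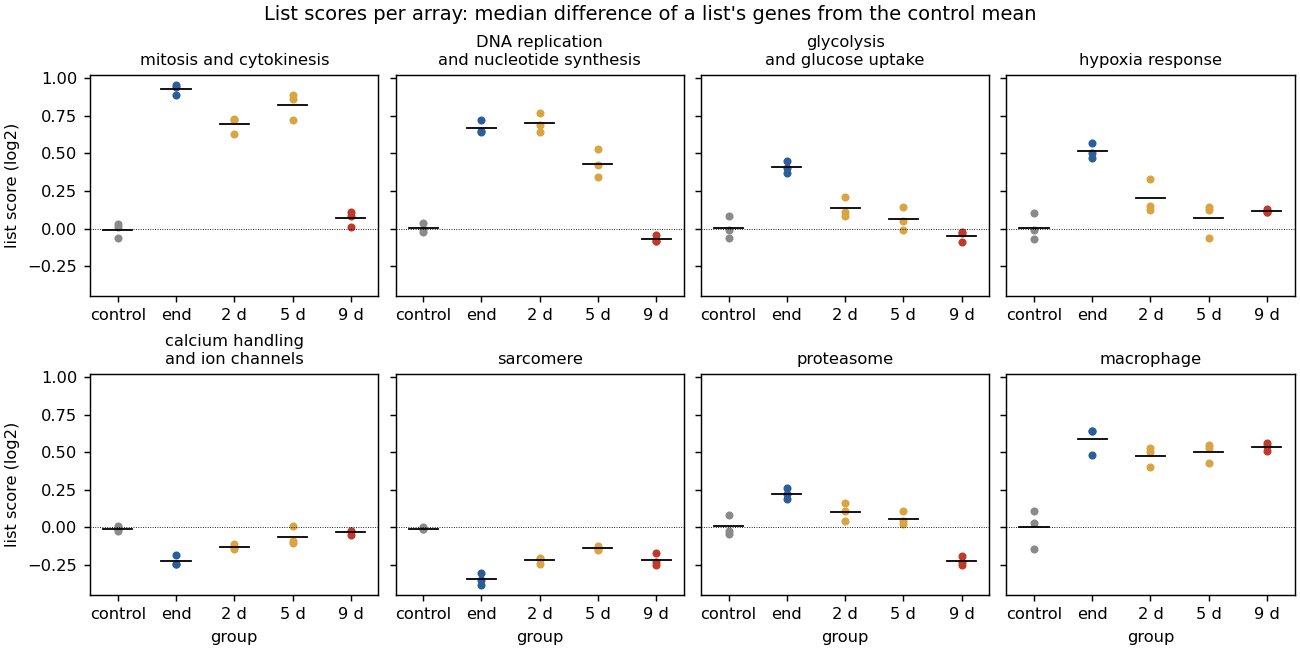
List scores per array (points) and group means (bars) in control fish, at the end of treatment and at 2, 5 and 9 days. A score is the median over the genes of a list of the log2 difference from the control mean; the mitosis score averaged 0.93 at the end of treatment, 0.69 at 2 days, 0.82 at 5 days and 0.07 at 9 days, and the glycolysis score averaged 0.41, 0.13, 0.06 and -0.05.

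Setting 9 days against control shows what differed at that time, whether it had stayed different or had moved during recovery. These 9-day arrays are again the same ones. In all, 1452 of 19260 genes (7.54%) differed, 816 (4.24%) higher and 636 (3.30%) lower at 9 days. The count was 713 without 9 days after treatment replicate 3, 890 and 920 without control replicate 1 and replicate 2, and 596 in a fit that included the blood score. The largest fitted rise was that of map1lc3cl, with 6.85, 7.36 and 7.11 at 9 days, against 3.46, 3.85 and 4.79 in control fish (3.07 ± 0.34). Of its control arrays 2 lay below the array medians, so no fold is given. Next were grna.1 (2.79), the chloride channel relative clic5a (2.49), angptl4 (2.30) and the growth inhibitor gene ddit4 (2.11). Of these, grna.1 was also called higher than at the end of treatment, and angptl4 and clic5a higher than at 5 days.

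Some of these were not called against the end of treatment. The gene clic5a had 8.49, 8.11 and 8.38 at 9 days, against 8.37, 8.42 and 8.61 at the end of treatment and 5.78, 6.11 and 5.62 in control fish, with means of 7.23 and 7.62 at 2 and 5 days. Its 9-day and end-of-treatment arrays overlapped (-0.14 ± 0.14, adjusted p = 0.587), and both groups lay far above control. The gene ddit4 had 8.61, 9.73 and 10.01 at 9 days, against 9.61, 9.56 and 10.08 at the end of treatment and 6.58, 7.53 and 7.91 in control fish. Its difference from the end of treatment was -0.30 ± 0.38 and was not called.

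Macrophage genes were higher than in control fish. Of 40 measured, 16 were higher and 0 lower (40% called, against 7.54% over all genes, median 0.57). Of 23 pan leukocyte genes 10 were higher and 0 lower (43.5% called, median 0.48). With the blood score in the fit these counts were 10 higher with 1 lower, and 1 higher with 0 lower. The gene mpeg1.2 was higher by 1.23 ± 0.12, with control arrays at 6.82, 6.72 and 6.73, and the antigen presentation gene cd74a by 0.97. The macrophage markers together had a mean level of 7.17 to 7.31 at 9 days, against 6.04 to 6.41 in control fish. Autophagy and lysosome genes were higher in 15 and lower in 2 of 46 (37% called, against 7.54% over all genes). There were 11 higher and 0 lower when 9 days after treatment replicate 3 was left out. In a fit that held the blood score 8 were higher and 1 lower. Erythroid maturation genes were higher in 14 and lower in 2 of 51 (31.4% called). In the separate haemoglobin list 2 of 7 were higher and 0 lower (28.6% called), hbaa2 at 1.39 ± 0.28 and hbba2 at 1.34 ± 0.20. Clock genes were higher in 11 and lower in 2 of 49 (26.5% called, against 7.54% over all genes). There were 7 calls without 9 days after treatment replicate 3, 6 without control replicate 1 and 5 with the blood score in the fit. The rises of hbaa2 and ddit4 over control were not called with the blood score in the fit. As hbaa2 is itself 1 of the 58 genes of that score, nothing is read from the loss of its call. The score alone widens standard errors 1.27-fold in this comparison.

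Members of other groups were lower than in control fish, with counts that depended on single arrays. Mitochondrial ribosome and biogenesis genes were lower in 20 and higher in 0 of 89 (median -0.25), heat shock chaperone genes lower in 11 and higher in 0 of 46, and sarcomere genes lower in 12 and higher in 1 of 64. The shares called were 22.5%, 23.9% and 20.3%, against 7.54% over all genes. Without 9 days after treatment replicate 3 these 3 counts of lower genes were 8, 5 and 7. Without control replicate 1 they were 11, 7 and 6, without control replicate 2 they were 10, 7 and 6, and without 9 days after treatment replicate 2 they were 19, 7 and 6. Sarcomere falls were 6 without control replicate 3, and with the blood score in the fit the 3 counts were 9, 7 and 6. Calcium handling and ion channel genes were lower in 8 and higher in 0 of 69 (11.6% called, against 7.54% over all genes, median -0.01). Lower genes numbered 2 to 4 without 9 days after treatment replicate 2 or 3 or control replicate 1 or 2. With the blood score in the fit 2 were lower, and nothing is read of this list from its count. The pacemaker gene hcn4 was lower by 1.08 on the log2 scale (2.11-fold) and its values at 2, 5 and 9 days averaged 9.99, 10.21 and 10.24. The largest falls from control were tm4sf21a (-1.89), the cytochrome gene cyp2ad2 (-1.72), the mitochondrial import gene tomm40l (-1.50), the glutamate receptor gene grin2da (-1.47) and the transporter gene slc16a4 (-1.46). For tm4sf21a the control arrays were uneven, at 6.35, 8.89 and 6.16, and its call against control was lost without 9 days after treatment replicate 1 or 3.

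Few division genes were called against control. Of 52 mitosis genes 1 was higher and 0 lower (1.92% called), the 1 being cdc25b (0.47), and of 55 DNA replication genes 0 were higher and 3 lower (5.45%), against 7.54% over all genes. Nothing is read of these lists from their counts. Of 36 glycolysis genes 1 was higher and 6 lower (19.4%). The glycolysis genes pgam1a and gpia were at -0.46 and -0.27, calls lost in 3 and 5 of 6 cases with 1 array left out, and that list had 2 to 3 calls without 9 days after treatment replicate 2 or 3 or control replicate 1 or 2, and 2 with the blood score. The peptide gene nppa was higher by 0.43 ± 0.09 (1.35-fold), with control arrays at 10.87, 10.88 and 11.21, though not in the fit that included the blood score, and nppb differed by 0.30 with adjusted p = 0.331. The plot of courses sets these patterns side by side.

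**Figure D5:**
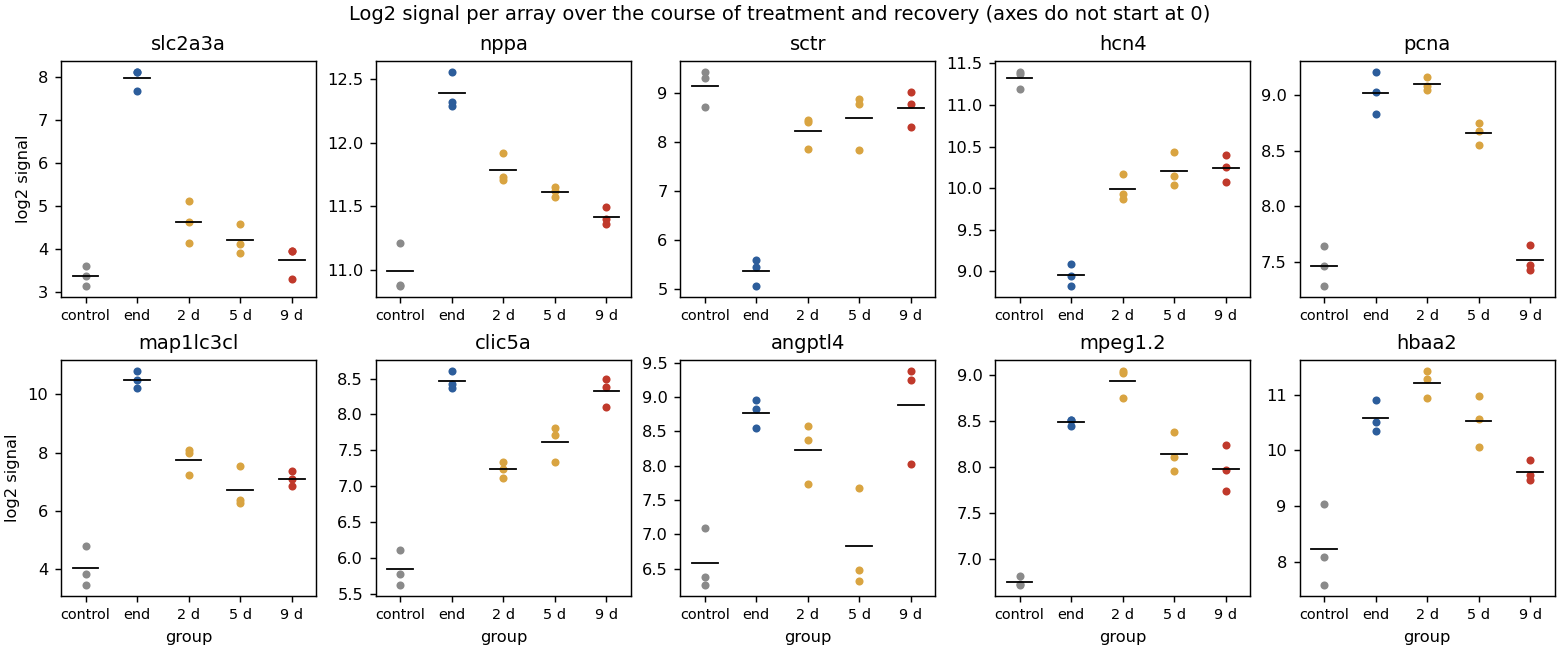
Log2 signal of each array (points) and group means (bars) of 10 genes in control fish, at the end of treatment and at 2, 5 and 9 days, with a separate y axis for each gene that does not start at 0. At 9 days slc2a3a, sctr and pcna lie near control, while map1lc3cl at 6.85 to 7.36 and clic5a at 8.11 to 8.49 lie above their control arrays and hcn4 at 10.07 to 10.40 lies below its control arrays.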

How the data were processed

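Per the submitters' processing notes, the authors made the deposited log2 values with RMA in oligo (background correction, quantile normalisation and probe summary). Their versions were not given in the sources used here. All 75212 transcript clusters were read as deposited. An array annotation gave 1 symbol to 20806 of them, 20323 of which matched the reference gene table by gene ID, and several to 855, and 53551 are unnamed here. For the 1365 genes with several clusters, that with the highest mean was used, which left 19260 genes, 2326 of them with placeholder symbols.

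Each gene was fitted with limma 3.58.1 in R 4.3.3, as 5 group means over 15 arrays with an intensity trend of the variance, 2-sided, with Benjamini-Hochberg adjustment over all genes within a comparison. An exact permutation of 3 against 3 arrays cannot go below p = 0.1. The median standard error was 0.14. On simulated data of 19260 genes for 9 days against the end of treatment, 37% of 100 genes changed by 0.5 and 80% of 100 changed by 1 were recovered, with 3 false calls. Far fewer genes changed there than were called in the data, which makes the adjustment stricter. These shares therefore do not carry over to the comparison itself. Figures used Python 3.11.15 and matplotlib 3.10.9.

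Members and 38 gene lists were chosen with earlier results of these data known, and lists are described by counts and medians only. Named genes are the 15 largest rises and falls among genes whose arrays did not overlap between the groups, up to 5 called and 2 uncalled members per list, the 5 largest rises and falls against control and against 5 days, and genes picked for the model or as cell markers. A few further list members were picked after their values were seen. Alternatives were 16 in number beside a 1.5-fold minimum and a fit of every cluster: variance settings, scaling, filtering, cluster averaging, the 6 arrays alone, a replicate block, a blood covariate and leaving out each array. Detection values are not used here, so signal over background is unknown. The sources used here do not name the files' genome build, so no coordinates are printed.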

Additional observations from a re-analysis of the deposited data

How the results depend on the processing

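Between 9 days and the end of treatment 3662 genes were called. Counts were 4565 over every transcript cluster, 3385 without an intensity trend, 3651 with a robust variance, 3936 with array weights, 3811 of 12840 genes after dropping the lowest 33%, 3608 for the mean of clusters, 3285 with the 6 arrays alone and 2734 to 3128 with 1 array left out. A 1.5-fold minimum left 1634. Against control, the 1.5-fold minimum left 568 of 1452, the blood covariate, which alone widens standard errors 1.27-fold, gave 596, and leaving out 1 array gave 713 to 1245. Against 5 days, the 1.5-fold minimum left 485 of 1178 and the 6 arrays alone gave 636. The blood covariate, with the same 1.27-fold widening, gave 426 and leaving out 1 array 615 to 1172. Apart from fewer samples or a stricter minimum, the cause was not tested. With a replicate block the 3 comparisons had 3525, 1337 and 1060 calls. Same-numbered arrays of 9 days and the end of treatment correlated at 0.018, 0.052 and 0.098, and not every array correlated best with its own number, so the numbers do not pair the arrays. Of 189 named genes called against the end of treatment, 171 kept their call in every one of the 16 alternatives that tested them (the filter on low signal drops a few), 17 lost it in leaving out an array and 1 elsewhere, and 0 reversed. Many of these genes were picked by their adjusted p or size of change in these data, which favours keeping a call. Over all genes, 2650 to 2911 of the 3662 calls were kept with 1 array left out. Differences near 0.5 can be missed at 3 arrays a group. How often was not measured in these data, since the simulation changed far fewer genes than were called here.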

Other observations

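Nerve and glia genes rose in 6 and fell in 0 of 32 between 9 days and the end of treatment (limma, adjusted p under 0.05). That is 18.8% called, against 19% over all genes, and nothing is read of this list from its count. The myelin gene pmp22b had 10.41, 10.50 and 10.41 at 9 days, against 9.94, 9.87 and 9.84 at the end of treatment (0.56 ± 0.07), and the synaptic gene syt1a rose by 1.04 ± 0.21. The mean signal of syt1a lay in the lowest 33% of genes. The defining markers elavl3, elavl4, sox10 and mbpa differed by -0.19 to 0.21 and were not called. The calls of ncam1a and syn2a were lost with 2 and 4 of the 6 arrays left out in turn. In the liver and gut list the retinol carrier gene rbp4 rose by 1.22 ± 0.12, with 10.01, 9.83 and 9.72 at 9 days, against 8.54, 8.68 and 8.67 at the end of treatment, while ela2 rose by 0.72 ± 0.23 with a call lost in 4 of 6 cases.

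Of 23 thrombocyte genes 7 fell and 0 rose (30.4% called, against 19% over all genes), and 5 fell and 3 rose with median centring. The integrin genes itgb3b and itga2b were at -1.14 ± 0.20 and -0.93 ± 0.21. Of the 3 measured thrombocyte markers itga2b fell, while gp1bb (0.49 ± 0.17) and tubb1 (-0.45 ± 0.23) were not called. Iron and oxidative stress genes fell in 14 and rose in 5 of 57 (33.3% called, against 19% over all genes, median -0.01). Among the falls were txnb at -1.21 ± 0.13, prdx6 at -0.72 ± 0.08 and blvra, which turns biliverdin to bilirubin, at -0.67 ± 0.09. Among the rises was ncoa4, at 0.43 to 0.55 across 16 alternative settings of the fit. The gene blvra was still higher than in control fish by 0.68. In the growth arrest list 10 of 55 rose and 11 fell (38.2% called, against 19% over all genes). With median centring 12 rose and 8 fell. Its members included tob1b at 0.71 ± 0.09 and fas at -1.10 ± 0.16 (-0.66 for the mean of its clusters). Of 47 skeletal muscle genes 1 changed (2.13%, against 19% over all genes), the creatine kinase gene ckmt2a at -0.45 ± 0.11. In that list 2 changed with median centring and without 9 days after treatment replicate 3 or end of treatment replicate 1. Among 55952 transcript clusters outside the gene table, 912 were higher and 1148 lower at 9 days (3.68% called).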
